A study of Bos taurus with 12 samples.

Results

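NR4A1, NR4A2, NR4A3, NR5A1 and NR5A2 are the bovine genes of the NR4A and NR5A families of orphan nuclear receptors. They were taken from the deposited tables by gene name, and all 5 were found among the 27270 genes listed for each cow. With 43 other nuclear receptor genes they make up a set of 48. Whole corpora lutea of 12 cows of mixed breed were sequenced, 1 library per cow, so the cow is the replicate. Cows at the middle of the luteal phase (day 10) received an intramuscular injection and their ovaries were then removed. The groups were control (saline, 4 cows), 4 h after a luteolytic dose of PGF2α (4 cows) and 12 h after the same treatment (4 cows). The sample labels give no time from saline to ovary removal and no saline group for each time. The effect of PGF2α and that of time after injection therefore cannot be told apart. According to the study's methods all cows, controls included, had been synchronized with earlier PGF2α injections. The comparison of 4 h with control and that of 12 h with control use the same 4 control cows.

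PGF2α is the uterine signal that ends the life of the corpus luteum, the gland that makes progesterone after ovulation. The NR4A receptors (NR4A1 is also called Nur77, NR4A2 Nurr1 and NR4A3 NOR1) are products of immediate early genes. They are made within a short time of a hormone or stress signal, bind DNA without a known physiological ligand, and act largely through their amount. The NR5A receptors, steroidogenic factor 1 (NR5A1) and liver receptor homolog 1 (NR5A2), bind as monomers to the promoters of genes for steroid synthesis. NR5A2 is known for its abundance in the luteal cells of several mammals.

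For each gene the deposited tables give an expected count, which is the estimate of its reads by the program RSEM and need not be whole, and TPM, a level in which reads are divided by transcript length and scaled to a fixed total. Total expected counts per cow were 10263310 to 22600213. The tissue carried its defining luteal transcripts: the summed TPM of STAR, CYP11A1, HSD3B1 and LHCGR was 13730 to 21140 in controls, 11240 to 14580 at 4 h and 2497 to 5235 at 12 h. The libraries of cow6455 (4 h) and cow6314 (12 h) were the least like their own groups, with a highest correlation of log2 CPM to another cow of the group of 0.978 and 0.977, against 0.980 to 0.987 for the other 10 cows. Transcripts at 12 h were shorter on the whole (1413.0 to 1577.1 bases, weighted by TPM, against 1628.5 to 1727.6 bases in controls). Over all genes tested, the 12 h change had a median of 0.01 on scaled counts and of -0.25 on log2(TPM + 1).

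All 5 receptor genes passed the count minimum and were among the 14481 genes tested with edgeR. A gene is said to rise or fall where its Benjamini-Hochberg adjusted p was under 0.05. At 4 h, NR4A1 rose and NR5A2 fell. Over all genes tested, 8.65% rose and 5.59% fell at 4 h. At 12 h, NR4A3, NR5A1 and NR5A2 fell and none of the 5 rose, while 23.6% of all genes rose and 25.3% fell. Between 12 h and 4 h, 4 of the 5 fell, the exception being NR4A2, while 22.5% of all genes rose and 24.3% fell. TPM of the groups did not overlap for 2 of the 5 genes at 4 h with control, 3 of the 5 at 12 h with control and 5 of the 5 at 12 h with 4 h. The same held for 19.0%, 44.0% and 38.9% of all genes tested in those 3 comparisons. In whole tissue, fewer cells of a type and less RNA per cell cannot be told apart, for these and all values that follow.

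**Figure D1:**
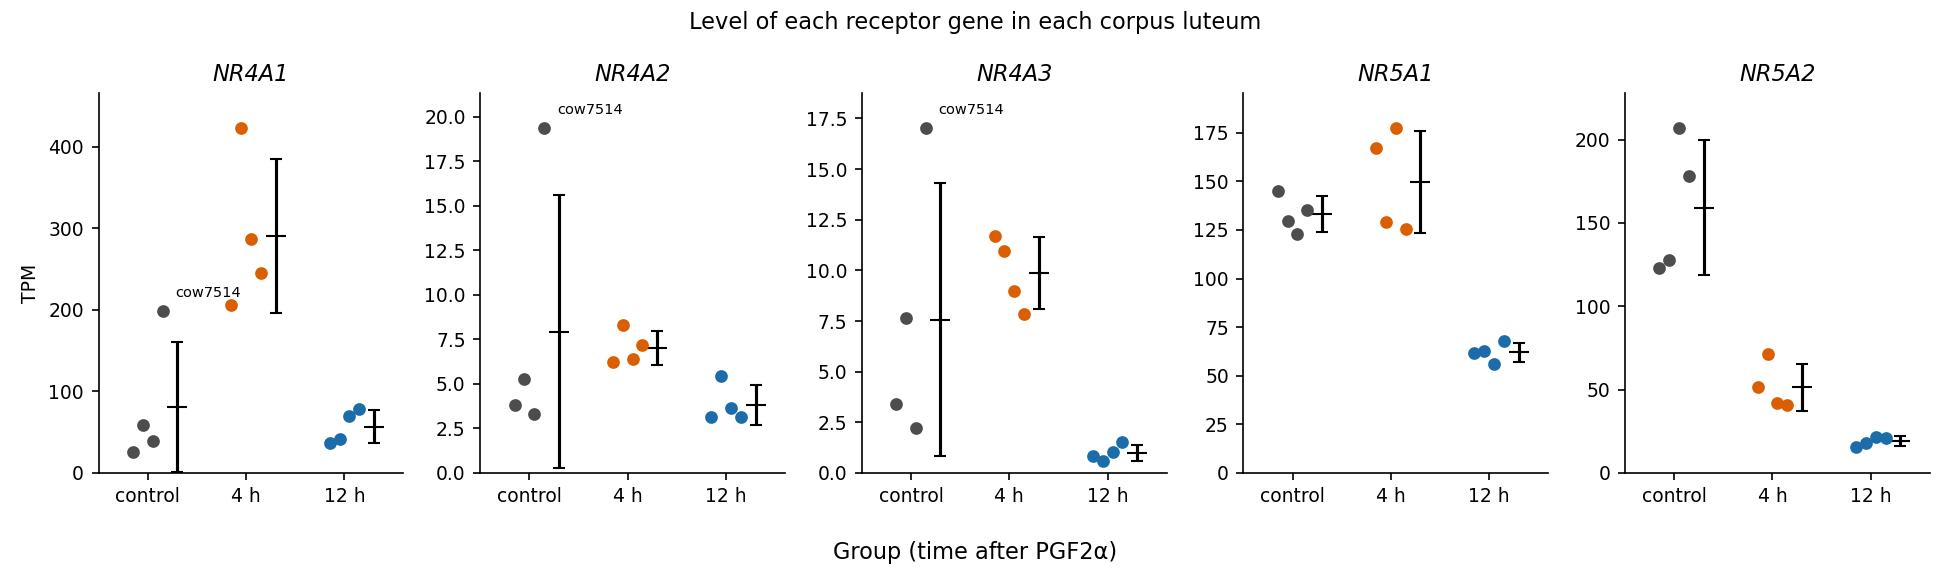
TPM of each receptor gene (vertical axis, from 0, with its own scale in each panel) in each cow by group (horizontal axis). Points are cows, the bar beside them is the mean ± SD of 4 cows, and control cow7514 is marked in the NR4A panels, where it lay above the other 3 controls.

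NR4A1 (chromosome 5, 27820352 to 27839685 of ARS-UCD1.2) encodes Nur77. Its level in control cows was 26.15, 58.88, 38.99 and 198.43 TPM. At 4 h it was 205.73, 423.01, 287.01 and 245.58 TPM, and at 12 h 36.64, 42.07, 70.18 and 78.38 TPM. All 4 cows at 4 h lay above all 4 controls, but the lowest of them was only just above control cow7514, while the 12 h cows lay within the control range. NR4A1 averaged 290.3 ± 94.47 TPM at 4 h and 80.61 ± 79.69 TPM in controls (SD, n = 4 each). It rose 3.71-fold at 4 h, by 1.89 ± 0.53 SE on the log2 scale (edgeR adjusted p = 0.0345). At 12 h the mean was 56.82 ± 20.56 TPM (SD, n = 4), -0.10 ± 0.52 SE against control on the log2 scale (edgeR adjusted p = 0.888). From 4 h to 12 h it fell by 1.99 ± 0.54 SE on the log2 scale (adjusted p = 0.00929 from edgeR), and no 12 h cow reached the level of any 4 h cow.

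The rise of NR4A1 at 4 h lost its call (adjusted p from 0.0514 to 0.0915, edgeR) when any of 6 cows was left out: control cow4285, cow6464 or cow7367, or 4 h cow5341, cow6455 or cow6456. It was also lost without cow6455 and cow6314 together (adjusted p = 0.0591) and in a fit of only the control and 4 h groups (adjusted p = 0.0605). No other call among the 5 genes changed without cow6455 and cow6314. The log2 fold change stayed between 1.62 and 2.81 over all 22 alternatives. Without cow7514 it was 2.81 (adjusted p = 0.0017 from edgeR).

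NR4A2 (chromosome 2, 39887966 to 39905341) encodes Nurr1, known best for its part in dopamine neurons. Its level was 3.8, 5.28, 3.31 and 19.37 TPM in controls, 6.22, 8.29, 6.37 and 7.18 TPM at 4 h, and 3.12, 5.47, 3.62 and 3.12 TPM at 12 h. The high control value was again that of cow7514, and the 4 h cows lay above the other 3 controls and below that cow. On the log2 scale the difference from control was -0.15 ± 0.45 SE at 4 h (edgeR adjusted p = 0.862) and -0.76 ± 0.46 SE at 12 h (edgeR adjusted p = 0.188). Without cow7514 NR4A2 rose at 4 h, by 0.79 on the log2 scale (edgeR adjusted p = 0.0363), and at 12 h the value was 0.20 (adjusted p = 0.459). The direction at 12 h rested on that 1 control. At 4 h it also turned with all cows kept, to 0.21 and 0.15 by limma on log2(TPM + 0.1) and log2(TPM + 1).

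Between 12 h and 4 h, where no control enters, all 12 h cows had less NR4A2 than all 4 h cows in TPM. The means were 3.833 ± 1.12 TPM at 12 h and 7.015 ± 0.949 TPM at 4 h (SD, n = 4 each). The log2 difference of -0.61 ± 0.46 SE did not pass the test with all 3 groups in 1 fit, in which the controls add to the estimate of spread (adjusted p = 0.288 from edgeR). It passed with a nearly equal value in a fit of only the 12 h and 4 h groups (-0.60, adjusted p = 0.0166) and without cow7514 (-0.59, adjusted p = 0.023).

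NR4A3 (chromosome 8, 64872311 to 64912348) encodes NOR1, first known from neurons. Its level was 3.4, 7.65, 2.2 and 17.03 TPM in controls and 11.68, 10.98, 8.97 and 7.84 TPM at 4 h. At 12 h it was 0.82, 0.58, 1.02 and 1.51 TPM. The 4 h cows lay above 3 of the 4 controls, and the 12 h cows lay below every control and every 4 h cow. At 4 h the log2 difference from control was 0.39 ± 0.50 SE (edgeR adjusted p = 0.647), and without cow7514 it was 1.18 (adjusted p = 0.101). At 12 h NR4A3 fell by 2.70 ± 0.57 SE on the log2 scale, 6.52-fold lower than in controls (adjusted p = 0.00197 from edgeR). Without cow7514 NR4A3 fell by 1.90 (adjusted p = 0.00473). Against 4 h it fell by 3.10 ± 0.57 SE (8.56-fold, adjusted p = 0.000951). Both falls at 12 h passed under all 22 alternatives. Only 21 to 41 reads per cow lie behind the 12 h values, against 65 to 751 in controls.

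Control cow7514 had more of each NR4A gene than any other control, by 3.37 times for NR4A1, 3.67 times for NR4A2 and 2.23 times for NR4A3 over the next control in TPM. For NR5A1 and NR5A2 it lay within the range of the other controls, at 0.931 and 0.862 times the highest of them. Of 21 immediate early genes tested, only EGR3, a zinc finger transcription factor, was at least 2-fold above the next control in this cow (3.33 times). FOS was at 0.635, EGR1 at 0.896, JUNB at 1.13, EGR2 at 1.52 and FOSB at 1.81 times the highest other control. Cow7514 was the highest control for 9 of the 21 genes (42.9%), against 24.2% of all genes tested. Over all genes tested, 83 (0.573%) were at least 2-fold above every other control in cow7514, against 79 to 278 genes for each of the other 3 controls. The order of the controls in NR4A2 and NR4A3 was the same, with cow7367 lowest, then cow4285, cow6464 and cow7514, and in NR4A1 the 2 lowest changed places. Why this control stood apart in the NR4A genes was not tested.

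NR4A1 took most of the NR4A TPM in every cow. It was 92.0% to 95.6% of the summed NR4A TPM at 4 h and 87.4% to 94.4% at 12 h, against 78.4% to 87.6% in controls. The sum itself was 33.35, 71.81, 44.5 and 234.8 TPM in controls, 223.6, 442.3, 302.4 and 260.6 TPM at 4 h, and 40.58, 48.12, 74.82 and 83.01 TPM at 12 h. NR4A3 made up 1.21% to 2.02% at 12 h, against 4.94% to 10.7% in controls, so that the 12 h sum lay within the control range while its NR4A3 share lay below it. NR4A2 made up 1.87% to 2.78% at 4 h, against 7.35% to 11.4% in controls.

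**Figure D2:**
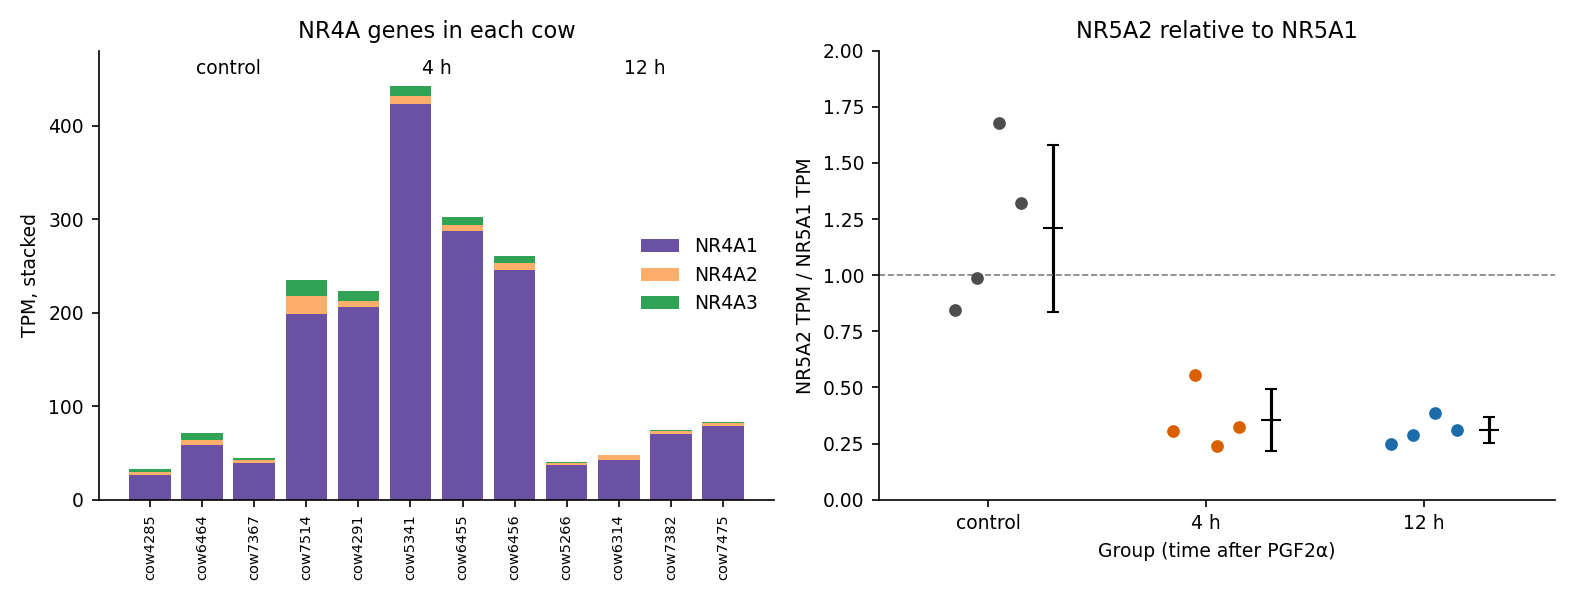
Left, TPM of NR4A1, NR4A2 and NR4A3 stacked for each cow (vertical axis from 0), with cows by group. Right, the ratio of NR5A2 TPM to NR5A1 TPM in each cow by group, with the mean ± SD of 4 cows and a dashed line at 1. NR4A1 took most of each stack, and the ratios of all treated cows lay below those of all controls.

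NR5A1 (chromosome 11, 95513842 to 95538735) encodes steroidogenic factor 1, an activator of the genes of steroid synthesis. Its level was 145.29, 129.57, 123.07 and 135.29 TPM in controls and 167.04, 129.01, 177.49 and 125.43 TPM at 4 h. At 12 h it was 61.54, 62.54, 56.04 and 67.76 TPM. Groups overlapped at 4 h, while every 12 h cow lay below every control and every 4 h cow. The spread between controls was small, with a mean of 133.3 ± 9.42 TPM (SD, n = 4). At 4 h the log2 difference from control was 0.21 ± 0.14 SE (edgeR adjusted p = 0.334). At 12 h NR5A1 averaged 61.97 ± 4.80 TPM (SD, n = 4) and fell by 0.79 ± 0.14 SE on the log2 scale against control (adjusted p = 0.000527 from edgeR). Against 4 h it fell by 0.995 ± 0.14 SE (adjusted p = 0.000134).

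NR5A2 (chromosome 16, 78828931 to 78957232) encodes liver receptor homolog 1, which in mice is needed in the ovary for ovulation and for luteal function. Its level was 123.01, 128.05, 207.0 and 178.36 TPM in controls, 51.28, 71.44, 42.17 and 40.63 TPM at 4 h, and 15.41, 18.16, 21.73 and 21.07 TPM at 12 h. The 3 groups did not overlap, and the levels fell in steps with time. At 4 h NR5A2 averaged 51.38 ± 14.2 TPM, against 159.1 ± 40.6 TPM in controls (SD, n = 4 each). It fell by 1.68 ± 0.22 SE on the log2 scale (3.21-fold, adjusted p = 0.000468 from edgeR). At 12 h it averaged 19.09 ± 2.90 TPM (SD, n = 4) and fell by 2.69 ± 0.23 SE against control (6.46-fold, adjusted p = 7.98e-06). From 4 h to 12 h it fell by 1.01 ± 0.22 SE (adjusted p = 0.00248). All 3 falls passed under each of the 22 alternatives, and the change at 4 h stayed between -1.84 and -1.51.

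**Figure D3:**
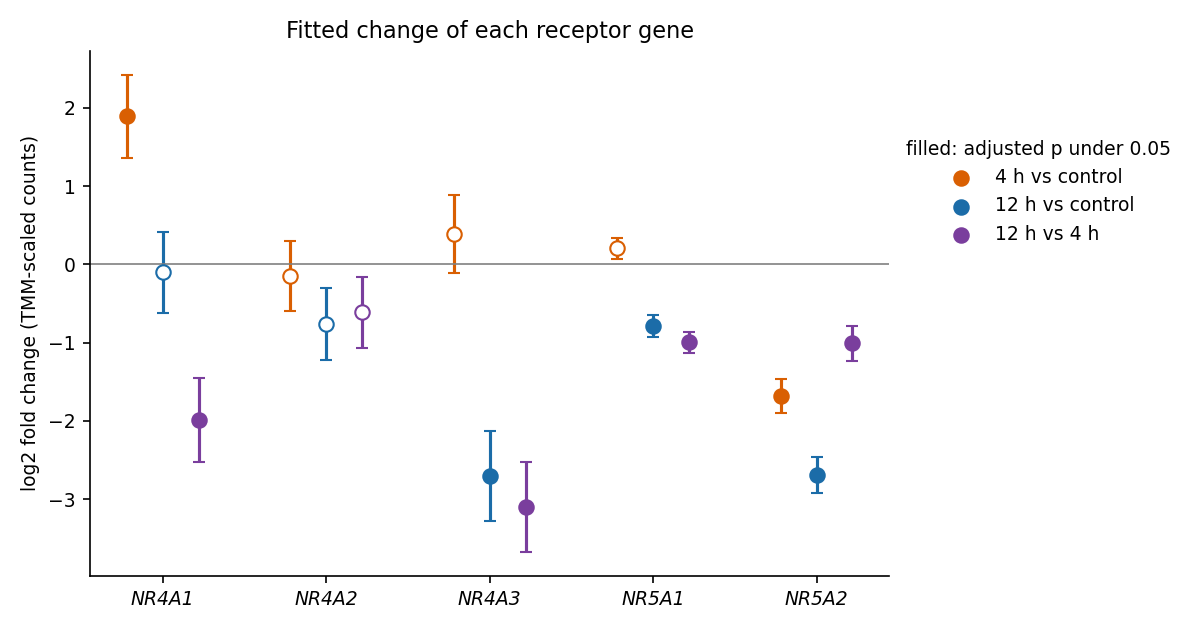
Fitted log2 fold change ± SE of each receptor gene from edgeR on TMM-scaled counts (vertical axis) for the 3 comparisons, filled where the adjusted p was under 0.05. NR4A1 lay at 1.89 at 4 h and -0.10 at 12 h, and NR5A2 at -1.68 and -2.69.

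NR5A2 fell at both times and NR5A1 passed the test only at 12 h, and whether the changes of the pair differed was not tested. The ratio of NR5A2 to NR5A1 in TPM was 0.847, 0.988, 1.68 and 1.32 in controls, 0.307, 0.554, 0.238 and 0.324 at 4 h, and 0.25, 0.29, 0.388 and 0.311 at 12 h. Ratios of all 8 treated cows lay below those of all controls, and those at 12 h lay within the range at 4 h. The summed NR5A TPM was 257.6 to 330.1 in controls, 166.1 to 219.7 at 4 h and 76.95 to 88.83 at 12 h. The ratio of summed NR4A to summed NR5A TPM was 0.124 to 0.749 in controls, 1.02 to 2.21 at 4 h and 0.527 to 0.962 at 12 h.

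Cell type markers moved at both times. Of the luteal markers STAR, CYP11A1, HSD3B1 and LHCGR, 1 (HSD3B1) fell at 4 h and all 4 fell at 12 h. PTGFR, the receptor for PGF2α and a marker of large luteal cells, fell by 1.17 ± 0.24 SE at 4 h (adjusted p = 0.00723 from edgeR) and fell by 3.13 ± 0.26 SE at 12 h (adjusted p = 6.79e-06). OXT, the oxytocin gene and the other large luteal marker, averaged 10220 TPM at 4 h and 14310 TPM at 12 h, against 11340 TPM in controls, and passed at neither time. Neutrophil markers (6 genes) summed to 41.48 to 145.2 TPM at 4 h and 98.54 to 263.7 TPM at 12 h, against 23.16 to 39.05 TPM in controls, with no overlap at either time. Of these 6, S100A9 rose at 4 h (by 2.73 ± 0.52 SE, adjusted p = 0.00505) and 5 rose at 12 h, while CSF3R had a median under 0.5 TPM in controls and at 4 h. CXCR2 went the other way, with -0.42 ± 0.41 SE at 4 h and -0.50 ± 0.42 SE at 12 h, and was not called. S100A8, S100A9 and S100A12 averaged 18.73, 31.12 and 104.9 TPM at 12 h, against 3.993, 4.092 and 12.01 TPM in controls. The 12 macrophage markers summed to 249.9 to 480.1 TPM at 4 h and 501.0 to 802.8 TPM at 12 h, against 205.2 to 562.4 TPM in controls, and 1 of them (CD14) rose at 4 h and 9 rose at 12 h. The 12 T and NK cell markers summed to 32.55 to 49.91 TPM at 4 h and 80.2 to 157.4 TPM at 12 h, against 38.68 to 153.7 TPM in controls. At 4 h all 12 had a negative log2 difference, of which 1 (LCK) passed the test. At 12 h 10 of the 12 were negative, with none called, and GZMA and NKG7, genes of cytotoxic cells, rose, with means of 52.08 and 22.14 TPM at 12 h, against 3.033 and 11.23 TPM in controls. The 12 endothelial markers summed to 588.6 to 887.5 TPM at 4 h and 454.0 to 922.2 TPM at 12 h, against 555.5 to 854.1 TPM in controls. Single markers moved in both directions. PECAM1 and TEK rose at 4 h, while KDR, EMCN and FLT1 fell. At 12 h VWF and CLDN5 rose, while KDR and FLT1 fell. Of 10 pericyte markers 2 rose at 4 h, and 2 rose and 1 fell at 12 h. Of 7 fibroblast markers none was called at 4 h and 2 rose at 12 h. Of 5 granulosa and theca cell markers tested, 2 fell at 4 h, and 1 rose and 2 fell at 12 h. The 1 erythrocyte marker tested rose at 12 h only. These markers moved in the same samples as the receptor genes, and their part in the receptor levels was not tested.

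The files also give for each gene a transcript length weighted by the estimated abundance of its transcripts. NR4A2 and NR5A1 each have 1 transcript in the tables, so their lengths are fixed, while NR4A1 has 6, NR4A3 has 2 and NR5A2 has 5. For NR5A2 the length was 4334, 4349, 4333 and 4390 bases at 12 h, against 4268, 4179, 4183 and 4121 bases in controls. For NR4A1 it was 2317, 2290, 2312 and 2366 bases at 12 h, against 2272, 2234, 2270 and 2185 bases in controls. Both were longer in every 12 h cow than in every control, which held for 12.8% of the 6680 tested genes whose length varied. At 4 h the length of NR5A2 was 4128, 3822, 4242 and 3727 bases, lower or within the control range, and that of NR4A3 overlapped between all groups. These lengths are estimates from short reads, with no count of each transcript in the tables used here. When each library's dependence on transcript length was fitted as an offset, all calls of the 5 genes were as in the fit without it.

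**Figure D4:**
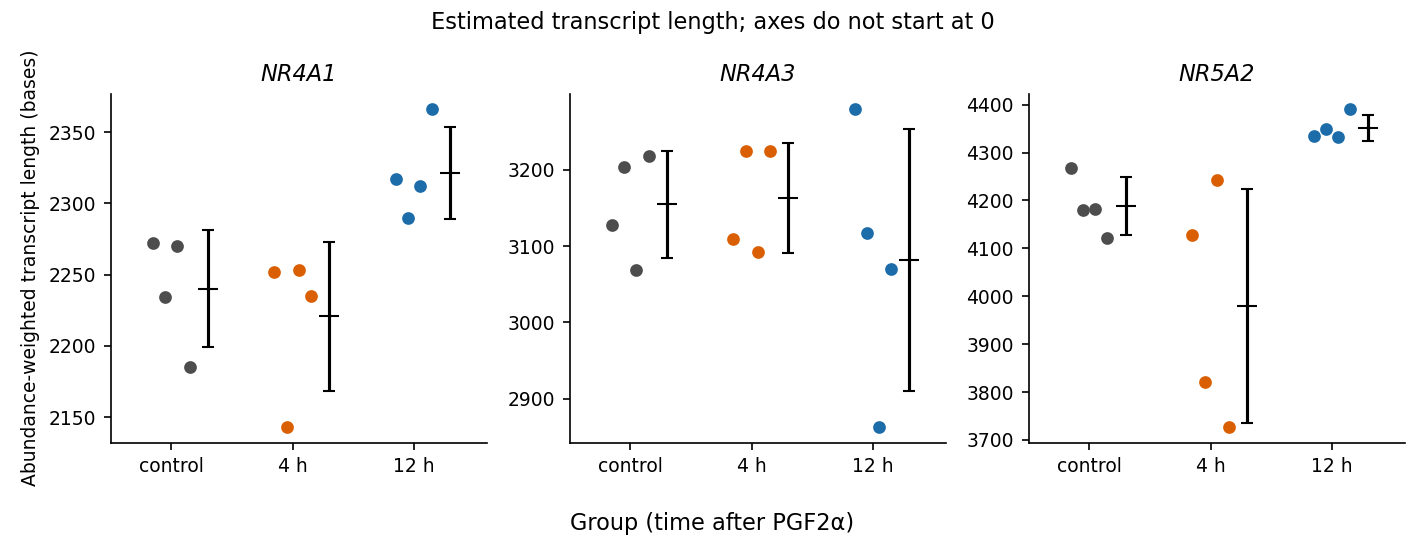
Abundance-weighted transcript length in bases (vertical axes, which do not start at 0) of the 3 receptor genes with more than 1 transcript in each cow by group, with the mean ± SD of 4 cows. The 12 h cows lay above all other cows for NR4A1 and NR5A2.

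TPM is a measure per length, so that genes can be ranked by it. Among the 48 nuclear receptor genes, NR5A2, NR5A1 and NR4A1 had the highest mean TPM in controls, in that order, ahead of NR2F2 (COUP-TFII, 77.75 TPM). The place of NR4A1 rested on cow7514: over the other 3 controls its mean was 41.34 TPM, at place 8, while NR5A2 and NR5A1 stayed first and second. In the controls NR4A1 (26.15 to 198.43 TPM) overlapped NR2F2 (68.97 to 90.49 TPM) and both NR5A genes only through cow7514. Its values in the other 3 controls (26.15, 58.88 and 38.99 TPM) lay below all of theirs. NR5A1 (123.07 to 145.29 TPM) and NR5A2 (123.01 to 207.0 TPM) overlapped each other. Whether neighbours in the order differed was not tested. At 4 h NR4A1 was the first of the 48, NR5A1 the second and NR5A2 the seventh, and the lowest NR4A1 value (205.73 TPM) lay above the highest of NR5A1 (177.49 TPM). At 12 h NR2F2 was first with a mean of 94.81 TPM, followed by NR5A1 and NR4A1, and NR5A2 was at place 11. NR4A2 and NR4A3 were at places 22 and 23 in controls, 22 and 19 at 4 h, and 21 and 32 at 12 h. Without cow7514 they were at places 26 and 25 in controls.

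Of the 43 other nuclear receptor genes 32 were tested. At 4 h 1 rose and 2 fell, with a median log2 fold change of 0.02 (-0.03 over all genes tested). PPARD, a lipid-sensing receptor, rose by 0.97 ± 0.16 SE (66.0 to 109.11 TPM at 4 h, against 36.34 to 44.68 TPM in controls, adjusted p = 0.00205 from edgeR). ESR1, estrogen receptor α, fell by 1.11 ± 0.24 SE (adjusted p = 0.0103), and NR1H4, the bile acid receptor FXR, fell by 1.54 ± 0.34 SE (adjusted p = 0.0116). At 12 h 5 rose and 11 fell, with a median of -0.21 (0.01 over all genes), while 23.6% of all genes rose and 25.3% fell. The rises of PPARG, NR1H2, RXRB and NR2F2 were lost by limma on both TPM scales. That of NR1H2 was also lost without 12 h cow5266 or cow7475, while that of NR1D1 passed in all 22 alternatives. Of the falls, only that of NR3C1 was lost, in 5 of 22. ESR1 had 1.94 to 3.6 TPM at 12 h, against 8.11 to 16.36 TPM in controls, and fell by 1.98 ± 0.25 SE (adjusted p = 7.22e-05). NR1D1, the clock repressor REV-ERBα, rose by 1.50 ± 0.22 SE (adjusted p = 0.00017). The largest fitted rise at 4 h among the 37 tested nuclear receptor genes was that of NR4A1 and the largest fall that of NR5A2.

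**Figure D5:**
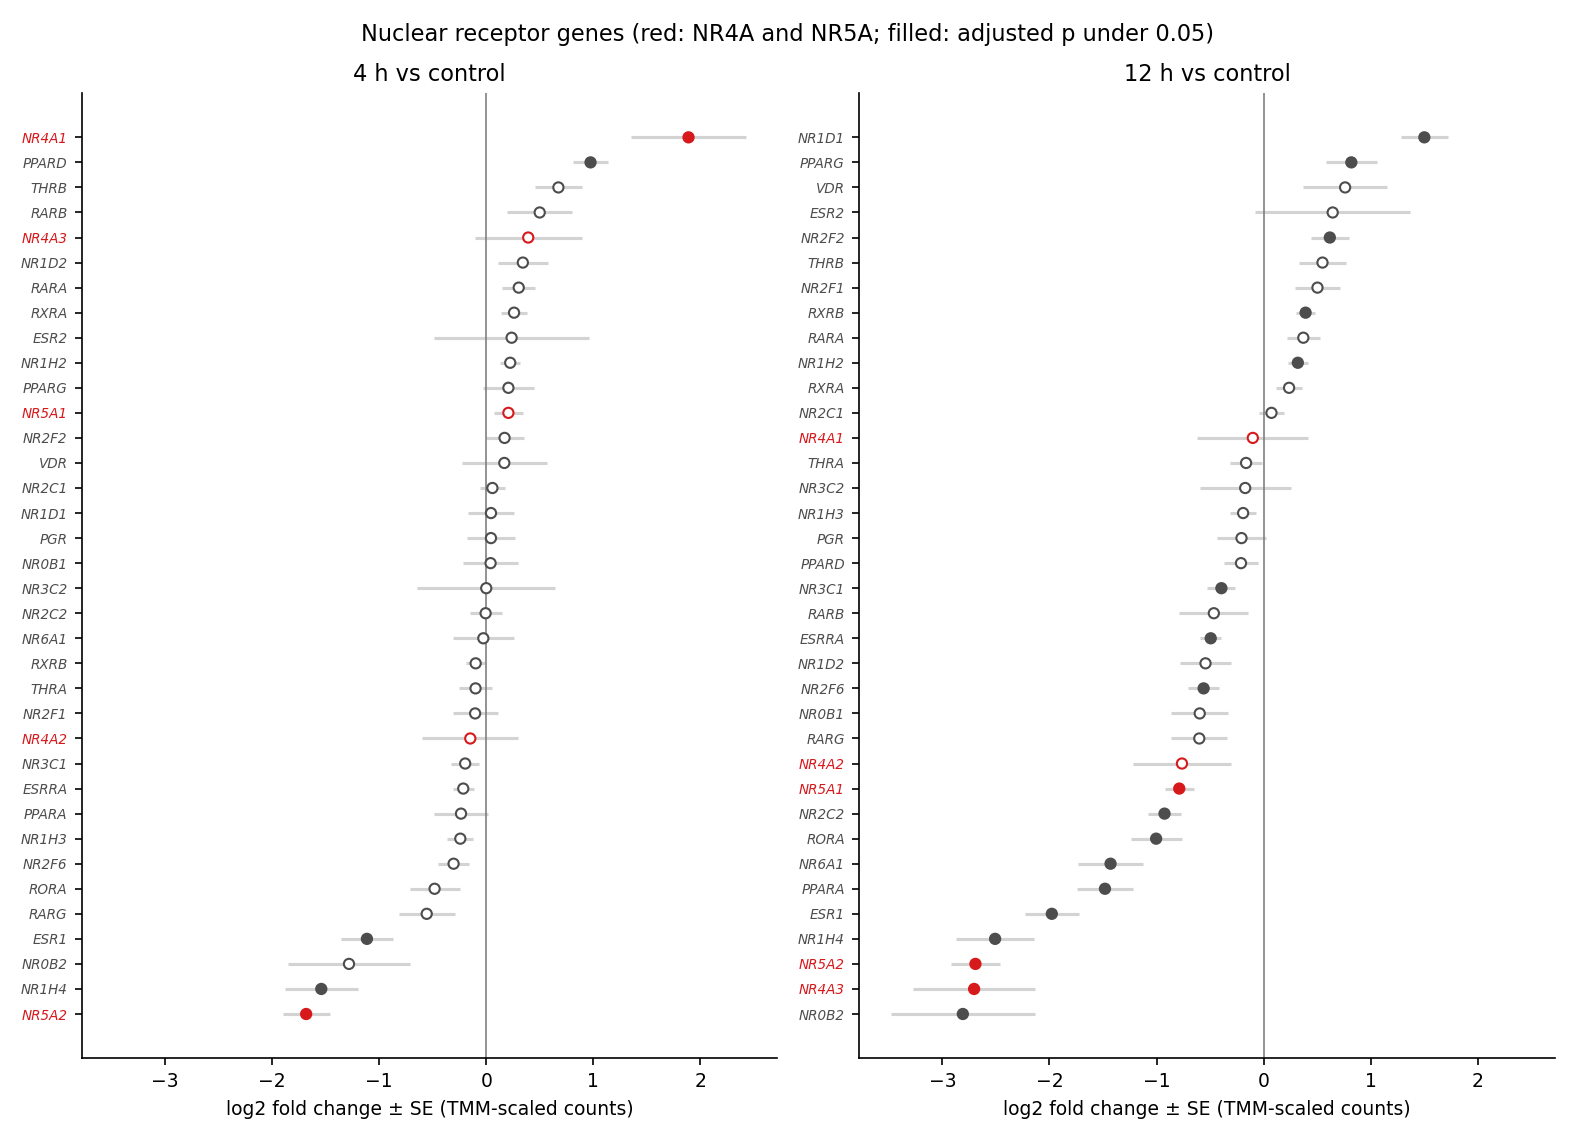
Fitted log2 fold change ± SE (horizontal axes) of the tested nuclear receptor genes shown at 4 h (left) and 12 h (right) against control, in order of the value, with NR4A and NR5A genes in red and filled points where the adjusted p was under 0.05. Of the tested genes, not all are drawn. NR4A1 stood at the top and NR5A2 at the bottom at 4 h.

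Partners of these receptors, such as RXR receptors, coactivators, corepressors and the ovarian factors that act with NR5A proteins, were followed as a list of 22 genes, 20 of them tested. At 4 h 2 rose and 2 fell (median log2 fold change 0.03), and at 12 h 2 rose and 12 fell (median -0.54, against 0.01 over all genes). The shares of all genes tested were 8.65% rising and 5.59% falling at 4 h, and 23.6% and 25.3% at 12 h. FOXL2, a forkhead factor of granulosa cells, had 4.69 to 6.6 TPM at 4 h and 1.67 to 2.8 TPM at 12 h, against 23.15 to 35.08 TPM in controls. It fell by 2.27 ± 0.20 SE at 4 h (adjusted p = 4.24e-05 from edgeR) and fell by 3.21 ± 0.22 SE at 12 h (adjusted p = 2.42e-06). DDX20, a helicase that represses NR5A1, fell by 0.39 ± 0.09 SE at 4 h, while GATA6, a zinc finger factor of steroidogenic cells, rose by 0.46 ± 0.13 SE (adjusted p = 0.0173 and 0.0379 for DDX20 and GATA6). The count of 4 called at 4 h was 1 by limma on either TPM scale, and 2 with the length offset or without control cow6464, 4 h cow5341 or 4 h cow6456. DDX20 lost its call in 6 of 22 alternatives and GATA6 in 9 of 22, while FOXL2 passed in all 22. At 12 h the coactivators PPARGC1B fell by 3.49 ± 0.34 SE and NCOA3 fell by 1.66 ± 0.16 SE (adjusted p = 1.52e-05 and 1.54e-05). RXRB and TRIM28 rose by 0.39 ± 0.09 SE and 0.38 ± 0.11 SE, calls that were lost by limma on both TPM scales. The NR5A inhibitors NR0B1 (DAX1) and NR0B2 (SHP) were low, with means of 1.073 and 0.22 TPM at 12 h, against 1.988 and 1.923 TPM in controls. NR0B2 fell by 2.81 ± 0.67 SE at 12 h (adjusted p = 0.00425), and the log2 difference of NR0B1 was -0.60 ± 0.27 SE (edgeR adjusted p = 0.0806). GATA6 and the NR0B genes lie outside the rule for named genes and were chosen after their values were seen, as were RXRB and TRIM28.

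Regulators through which calcium, cAMP and serum signals are known to induce the NR4A genes made a list of 16, all tested. At 4 h 2 rose and none fell (median log2 fold change 0.06, against -0.03 over all genes). At 12 h 3 rose and 7 fell (median -0.13, against 0.01). Over all genes tested, 8.65% rose and 5.59% fell at 4 h, and 23.6% rose and 25.3% fell at 12 h. The rises of MEF2A and HDAC5 at 12 h were lost by limma on both TPM scales, and the fall of CABIN1 with the length offset. SRF, the serum response factor, had 45.0 to 74.68 TPM at 4 h, against 15.83 to 22.53 TPM in controls, and rose by 1.65 ± 0.21 SE (adjusted p = 0.000384 from edgeR). SRF passed in all 22 alternatives. MEF2D, a calcium-responsive factor that binds the NR4A1 promoter in mouse T cells, rose by 0.42 ± 0.12 SE at 4 h (adjusted p = 0.0416) and fell by 0.56 ± 0.13 SE at 12 h (adjusted p = 0.00273). Its call at 4 h was lost in 8 of 22 alternatives: by limma on both TPM scales, with only the control and 4 h groups, and without control cow4285, cow6464 or cow7367 or 4 h cow5341 or cow6456. HDAC4, a histone deacetylase that binds MEF2 factors, fell by 1.71 ± 0.17 SE at 12 h (adjusted p = 1.51e-05). Of the CREB coactivators, CRTC3 fell by 0.96 ± 0.14 SE at 12 h and CRTC2 rose by 0.49 ± 0.09 SE (adjusted p = 0.000197 and 0.000528 for CRTC3 and CRTC2), the call of CRTC2 being lost by limma on both TPM scales. At 4 h CRTC2 differed from control by 0.24 ± 0.09 SE (edgeR adjusted p = 0.0825).

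Other immediate early genes were followed as a list of 22, of which 21 were tested. At 4 h 16 rose and none fell, with a median log2 fold change of 1.86, and at 12 h 12 rose and 1 fell, with a median of 0.94. The medians over all genes tested were -0.03 and 0.01, and 8.65% of all genes rose at 4 h and 23.6% at 12 h. FOSB, a partner of JUN proteins in AP-1, had 119.37 to 181.32 TPM at 4 h and 2.04 to 3.71 TPM at 12 h, against 0.34 to 1.56 TPM in controls. It rose by 7.33 ± 0.35 SE at 4 h (adjusted p = 4.23e-07 from edgeR). ATF3, a stress-induced repressor, rose by 3.75 ± 0.34 SE at 4 h and by 3.48 ± 0.34 SE at 12 h (adjusted p = 4.52e-05 at 4 h and 1.51e-05 at 12 h). CSRNP1 rose by 2.25 ± 0.21 SE at 4 h (adjusted p = 4.78e-05). At 12 h ZFP36, which binds AU-rich mRNA, rose by 1.72 ± 0.26 SE and JUN rose by 1.06 ± 0.17 SE (adjusted p = 0.000214 and 0.000309 for ZFP36 and JUN). NR4A1 was called at 4 h as well, with an SE of 0.53, and NR4A2 and NR4A3 were not called.

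Genes known as targets of NR5A receptors in steroidogenic tissue made a list of 16, of which 14 were tested. None rose and 3 fell at 4 h (median log2 fold change -0.24), and 1 rose and 8 fell at 12 h (median -0.83). The medians over all genes tested were -0.03 and 0.01, and 5.59% of all genes fell at 4 h and 25.3% at 12 h. HSD3B1, the enzyme that makes progesterone, had 2774.66 to 3470.21 TPM at 4 h and 431.68 to 614.36 TPM at 12 h, against 4089.77 to 7144.29 TPM in controls. It fell by 0.78 ± 0.23 SE at 4 h (adjusted p = 0.0406 from edgeR) and fell by 3.15 ± 0.25 SE at 12 h (adjusted p = 5.56e-06). CYP19A1 (aromatase) fell by 1.01 ± 0.28 SE and PRLR (the prolactin receptor) fell by 1.13 ± 0.29 SE at 4 h (adjusted p = 0.0308 and 0.0225 for CYP19A1 and PRLR), and at 12 h CYP19A1 fell by 2.79 ± 0.30 SE and PRLR fell by 2.84 ± 0.32 SE. The count at 4 h rested on single cows: it was 0 of 14 without 4 h cow4291, without 4 h cow6455 or without control cow7514, and 1 of 14 without control cow7367 or 4 h cow6456. FSHR, the receptor for follicle-stimulating hormone, was the 1 that rose at 12 h, by 1.93 ± 0.31 SE to a mean of 7.3 TPM, against 2.595 TPM in controls (adjusted p = 0.000359).

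The genes whose levels ran most like those of each receptor over the 12 cows were found by Pearson's r of log2 CPM among 10420 genes, as a description. The cows share their group in this measure, so any gene with the same group means scores high. For NR4A1 they were BHLHE40 (r = 0.943), EGR3 (0.921) and SMAD7 (0.917), of which BHLHE40 and EGR3 encode inducible transcription factors and SMAD7 an inhibitor of TGF-β signalling. For NR4A3 they were ZNF687 (0.937), USP36 (0.933) and IRAK2 (0.93). For NR4A2 the best values were lower, SLC20A1 (0.731), DCP1A (0.712) and COQ10B (0.703). For NR5A1 they were TMEM268 (0.966), NFIX (0.953) and ADCY3 (0.949), and for NR5A2 DNAJC30 (0.981), ATXN7L3B (0.974) and SLC25A13 (0.973). BHLHE40 averaged 102.0 TPM at 4 h, against 24.6 TPM in controls, and DNAJC30 averaged 14.7 TPM at 4 h and 6.11 TPM at 12 h, against 30.9 TPM in controls.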

How the data were processed

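RNA of whole corpora lutea of 12 cows was sequenced, with each cow in a library of its own. Alignment with STAR 2.5, quantification with RSEM 1.3 and the build ARS-UCD 1.2 are named in the submitters' processing notes. For each cow the authors deposited a table of the expected count, TPM, FPKM and transcript length of each gene. Expected counts, as deposited by the authors, were rounded to whole numbers. TPM, as deposited, was used for levels. FPKM was not used. The members and gene lists were chosen with earlier results of these data known.

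Genes that reached 10 counts in 4 or more of 12 libraries were scaled by TMM and fitted with edgeR 4.0.16 (quasi-likelihood test, 3 groups in 1 fit). The Benjamini-Hochberg adjustment ran over all 14481 genes tested in each comparison, and every adjusted p is from this fit unless an alternative is named. With total counts of 10263310 to 22600213 per cow, the SE of a log2 fold change covers counting error and the spread between cows.

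Genes named in the text are the 5 receptors, the 3 genes of each list with the smallest p at 4 h and the 3 at 12 h, and the 3 genes with the highest Pearson's r to each receptor (log2 CPM, prior count 2, mean of at least 5 CPM). Some genes that this rule names are not reported here. Others are said to be chosen after their values were seen. FOS, EGR1, EGR2, JUNB, NR2F2, FSHR, PPARG, NR1H2, NR3C1, MEF2A, HDAC5 and CABIN1 also lie outside the rule. Cell markers come from a list for each cell type. The alternatives were DESeq2 1.42.0, RLE scaling, no count minimum, a minimum of 50 counts, the 2 groups compared only, limma 3.58.1 on log2(TPM + 1) and log2(TPM + 0.1), no mitochondrially encoded genes, an offset for transcript length (spline with 5 degrees of freedom), no cow6455 and cow6314, and each cow left out in turn. The fits were tested on simulated data with planted changes. Python 3.11.15 (matplotlib 3.10.9, numpy 2.4.6, pandas 2.3.3) and R 4.3.3 were used. Listed genes absent from the tables were not analysed here.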

Additional observations from a re-analysis of the deposited data

Results flagged for a closer look

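NR4A2 in control cow7514 (19.37 TPM) stood apart from the other 3 controls, whose highest value was 5.28 TPM. The gap was 0.877 of the range of the 4 controls, above Dixon's critical value. It was the 1 such case in 15 looked at (5 genes in 3 groups), and by chance about 1 in 20 would give one.

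For 4 of the 5 genes the change at 12 h differed from the change at 4 h by the direct test of 12 h with 4 h in edgeR. By the same test 22.5% of all genes rose and 24.3% fell, and TPM of the 2 groups did not overlap for 38.9% of all genes tested. The log2 difference was -1.99 for NR4A1, -3.10 for NR4A3, -0.995 for NR5A1 and -1.01 for NR5A2, with every 12 h cow below every 4 h cow in TPM for each gene. All 4 differences passed under each of the 22 alternatives.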

How the results depend on the processing

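Of 15 results (5 genes, 3 comparisons), 10 kept their direction and their side of the threshold in all 22 alternatives. NR4A1 at 4 h was 1.91 with only the 2 groups compared (adjusted p = 0.0605), 1.86 without cow6455 and cow6314 (adjusted p = 0.0591), and 1.62 to 2.81 with each cow left out in turn. NR4A1 at 12 h was 0.055 without cow6455 and cow6314 and -0.35 to 0.84 with a cow left out, never past the threshold. NR4A2 at 4 h was 0.21 and 0.15 by limma on log2(TPM + 0.1) and log2(TPM + 1), and -0.40 to 0.79 with a cow left out. NR4A2 at 12 h against control was -1.01 to 0.20, and against 4 h -0.73 to -0.50, with a cow left out, and -0.60 with only the 2 groups compared. The turns of NR4A2 against control among the left-out cows came from control cow7514.

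Of list counts at 4 h, NR5A targets gave 1 gene without cow6455 and cow6314, and 0 to 3 with a cow left out. Partners gave 1 gene by limma on either TPM scale, 2 with the length offset and 2 to 4 with a cow left out. Inducers gave 1 gene by limma on either scale, 4 without cow6455 and cow6314, and 1 to 3 with a cow left out. Genes called at 4 h were 1267 to 2174 with a cow left out (2062 in all cows), with 1300 without 4 h cow5341, 1373 without control cow7367 and 1267 without control cow7514. By limma on log2(TPM + 1), 1509 genes rose and 5631 fell at 12 h against control, and 1304 rose and 5194 fell against 4 h (on scaled counts 3417 and 3665, and 3252 and 3512), and on log2(TPM + 0.1) the splits were 1543 and 5666, and 1298 and 5261. At 4 h 1107 rose and 1209 fell with the length offset, and 923 and 377 without cow5341, against 1253 and 809. The cause of these differences between settings was not tested.

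No paired analysis was possible because the cows share no replicate numbers between groups. NR4A3 at 12 h rests on 21 to 41 reads per cow. Each p-value sets a difference between groups against the spread between these cows.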

Other observations

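Of the 83 genes at least 2-fold above every other control in cow7514, 4 are given here, picked after their values were seen. CCL21, a chemokine, had 300.58 TPM in this cow and at most 87.56 TPM in the other controls. FLT4, a receptor for VEGF-C, had 19.29 TPM, against 6.83 to 7.75 TPM in the other controls, and MMRN1 had 8.56 TPM, against 0.24 to 2.85 TPM. BHLHE40, the gene most like NR4A1 over the 12 cows, was also among them, with 44.64 TPM, against 15.86 to 21.21 TPM. These are values of 1 cow with no test, and their relation to the NR4A genes was not tested.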
